A study of Lathyrus oleraceus subsp. biflorus and Lathyrus oleraceus and [Pisum sativum] subsp. abyssinicum with 117 samples.

Results

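The 32 genes described here are those whose transcripts were abundant in both the seed coat and the embryo of developing pea seeds. They were chosen from levels measured in 4 accessions (Cameor, JI92, JI1794 and PI358617). For every gene whose identifier starts with Psat, the mean log2(CPM + 1) of each stage was averaged over these accessions (CPM is the count scaled to a fixed library total). A gene was kept when its highest stage mean exceeded 9 in both the seed coat (stages D1 to D5) and the embryo (stages D2 to D5) and when these maxima differed by less than 1. Of 59594 features in the tables, 31857 carry Psat identifiers; 361 of these passed the seed coat level, 231 the embryo level, 75 both, and 32 all 3 conditions, so the cap of 80 genes was not reached.

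The study profiled polyadenylated RNA of dissected seed tissues from glasshouse-grown pea at 5 developmental stages, named D1 to D5. The wild accessions were JI64, JI261 and JI1794 (P. elatius), the domesticated ones were the cultivar Cameor and the landrace JI92 (P. sativum), and PI358617 represents Ethiopian pea (P. abyssinicum); no treatment was applied to any plant. Of 117 libraries, 106 form the main set, with 56 of seed coat and 50 of embryo, and 11 are seed coats of JI64 and JI92 whose labels give the year 2017. Of 60 groups of accession, tissue and stage, 57 hold 2 libraries and 3 hold 1; D1 embryos were analysed for JI64, Cameor and PI358617, JI261 has no D2 seed coats and its embryos start at D3, and JI64 embryos end at D4. The labels do not tell whether paired libraries derive from different plants. In fits on single libraries the p-values therefore measure the spread between libraries, which may be technical. In fits on summed libraries (tissue, seed coat D4 against D1, and wild against domesticated) they measure the spread between blocks or between accessions. The 70 libraries behind the choice of genes are described without tests; tests use the other 47 (JI64, JI261, the 2017 seed coats and the D1 embryos), except for wild against domesticated peas.

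The seed coat is maternal tissue that surrounds the embryo, passes sugars and amino acids to it during filling and later hardens into the barrier that sets water uptake. The embryo of pea is mostly cotyledon, which divides early and then fills with starch and storage proteins such as vicilins and legumins. In bulk samples of this kind, fewer cells of a type and less RNA per cell cannot be told apart. The files pair these identifiers with no gene name or product, and none of the 32 was found in the RefSeq gene table used here, so the genes are called by identifier and no function is given.

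Library totals ran from 56.97 M to 104 M counts (M, 1e6) with a median of 66.1 M. Of 57 pairs of libraries of a group none agreed within counting noise, and the lowest ratio of the spread to that noise was 5.42. The median absolute log2 difference between paired libraries was 0.058 for the 32 genes and 0.091 for all features with a mean of 10 counts. Tissue was checked with gene lists drawn from PI358617 alone: the seed coat list took 5.94 to 28.8% of counts in seed coats of the other accessions and 0.046 to 0.771% in embryos, without the 3 libraries named next. JI64 seed coat D1 replicate 2 was closest in rank correlation to a JI64 embryo of D1 (Spearman's rho 0.936), and its seed coat list share was 0.164%. JI64 seed coat D5 replicates 1 and 2 also stood apart, with shares of 0.235 and 2.90%. Both JI92 seed coat libraries of D4 in the main set held 7927 and 7588 CPM of Psat0s876g0120, against at most 30.4 CPM in every other JI92 library; by rank they were still closest to each other and to JI92 seed coats. A further 5 features followed this pattern in these libraries, and all 6 were present in JI64 embryos of D4 at 127 to 14908 CPM. Some results that rest on these 5 libraries are given with and without them. Where nothing is said, seed coat values of the main set include them.

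The 32 genes together took 0.680 to 6.21% of all counts in seed coat libraries of the main set (median 2.84%) and 1.56 to 6.32% in embryos (median 3.56%). The lowest seed coat share belongs to JI64 D5 replicate 1 and the highest to JI64 D1 replicate 2; without the 5 libraries the range was 1.58 to 4.32%. Counting error adds at most 0.006 percentage points to any of these shares (95% Wilson half-width); PCR copies are not independent molecules, so this covers counting error only. In D1 embryos the share lay between 5.22 and 6.32%, above every other embryo library, in JI64, Cameor and PI358617 alike. In D1 seed coats of JI261 it was 4.00 and 4.02%, and in Cameor, the lowest at that stage, 2.27 and 2.28%.

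**Figure D1:**
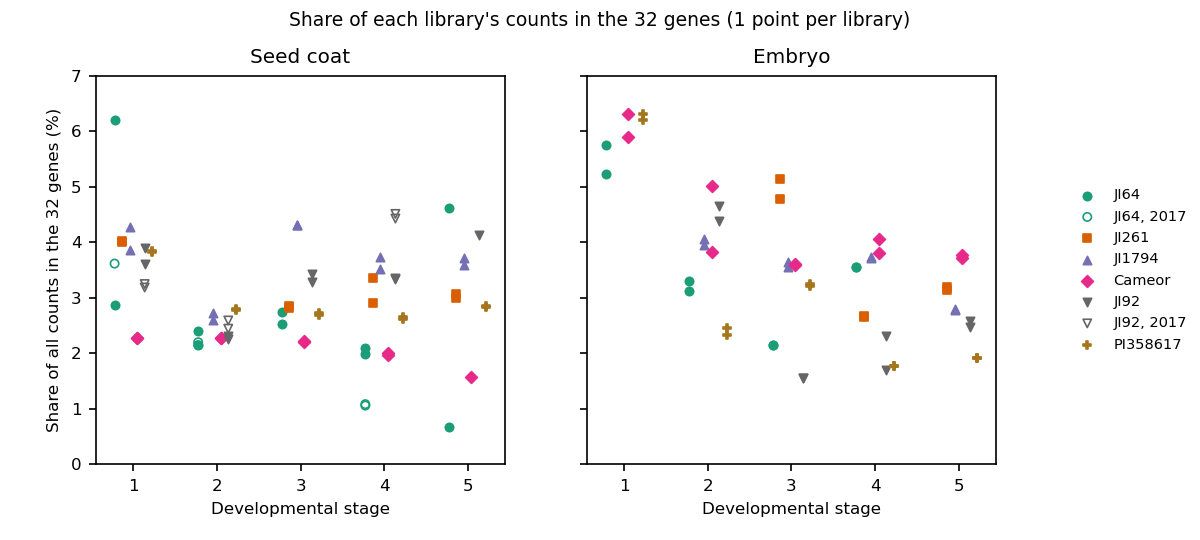
Share of each library's counts (%, vertical axis) in the 32 genes by developmental stage (horizontal axis), seed coat on the left and embryo on the right; each point is 1 library, the colour and shape give the accession and open symbols the 2017 seed coats. The D1 embryos lie highest, between 5.22 and 6.32%; the highest and lowest seed coat points, at 6.21 and 0.680%, are JI64 libraries that stand apart.

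On a scale per transcript length (FPKM, in which fragments are scaled for transcript length and library size), which allows genes to be compared, the median level of the 32 genes over seed coat libraries ran from 7.83 FPKM for Psat7g244720 to 859.5 FPKM for Psat1g154600. Over embryo libraries it ran from 24.4 FPKM for Psat4g019440 to 1686 FPKM for Psat0s876g0120. The median rank among all features was 177.5 in seed coat and 165.5 in embryo. Transcript length, as implied by the ratio of CPM to FPKM, was not unusual: the median of the 32 was 1.22 times that of Psat genes with CPM above 1 in a main library (range 0.50 to 2.76), and 13 of 32 lay below that median. Their identifiers fall in all 7 numbered Psat series, with 3 to 6 genes in each, and 2 fall in the Psat0s series.

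Values just inside and just outside the thresholds are close. In the seed coat, Psat3g021400 (9.04) and Psat6g104960 (9.12) passed and Psat4g089880 (8.71) and Psat7g004360 (8.67) did not. In the embryo, Psat4g069320 (9.02) and Psat5g094000 (9.02) passed and Psat6g002360 (8.96) and Psat7g139080 (8.89) did not. For the difference of maxima, Psat6g152120 (0.99) and Psat4g204960 (0.92) passed, whereas Psat5g164840 (1.07) and Psat2g004560 (1.16) did not. Without the JI92 seed coats of D4, an alternative chosen after seeing the data, 31 of the 32 genes passed again: Psat0s876g0120 was lost, its difference being 1.69, and Psat7g091520 was gained.

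The 10 genes with the largest sum of both maxima on the log2(CPM + 1) scale, which is not corrected for length, differ in when and where they are abundant. Psat1g082560 led, with maxima of 12.21 (seed coat) and 13.11 (embryo), and was the one gene above 9 in all 106 libraries of the main set. Its lowest level was 579.5 CPM (JI64 seed coat D5 replicate 1) and its highest 15092 CPM (Cameor embryo D1 replicate 2); without the 5 libraries named above the lowest was 978 CPM. Psat7g091680 (maxima 11.92 and 11.52) and Psat4g019440 (11.51 and 11.33) followed. Psat0s194g0080, Psat1g154600 and Psat3g036800 came close behind, with seed coat maxima of 11.13, 11.14 and 10.88 and embryo maxima of 10.69, 10.32 and 10.48. Psat0s876g0120 (10.46 and 11.33) and Psat7g244720 (10.13 and 10.98) reached their maxima late in both tissues. Psat7g140760 (10.91 and 10.08) and Psat2g071480 (10.62 and 10.20) complete the 10.

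In 17 of the 32 genes the seed coat maximum fell at D1 and the embryo maximum at D2, the first stage used for each tissue; they are called early genes below. The other 15 had other combinations of stages, 5 of them with a maximum at the first stage used in 1 of the tissues: 4 had both maxima at D5, 3 had a seed coat maximum at D3 with an embryo maximum at D5, and 3 had a seed coat maximum at D3 with an embryo maximum at D2. A seed coat maximum at D1 with an embryo maximum at D5 was found in 2, and the remaining 3 had a combination each. Psat1g082560, Psat4g019440, Psat0s194g0080, Psat3g036800 and Psat2g071480 are early genes. Psat7g091680, Psat0s876g0120, Psat1g154600, Psat7g244720 and Psat7g140760 are among the 15 others.

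**Figure D2:**
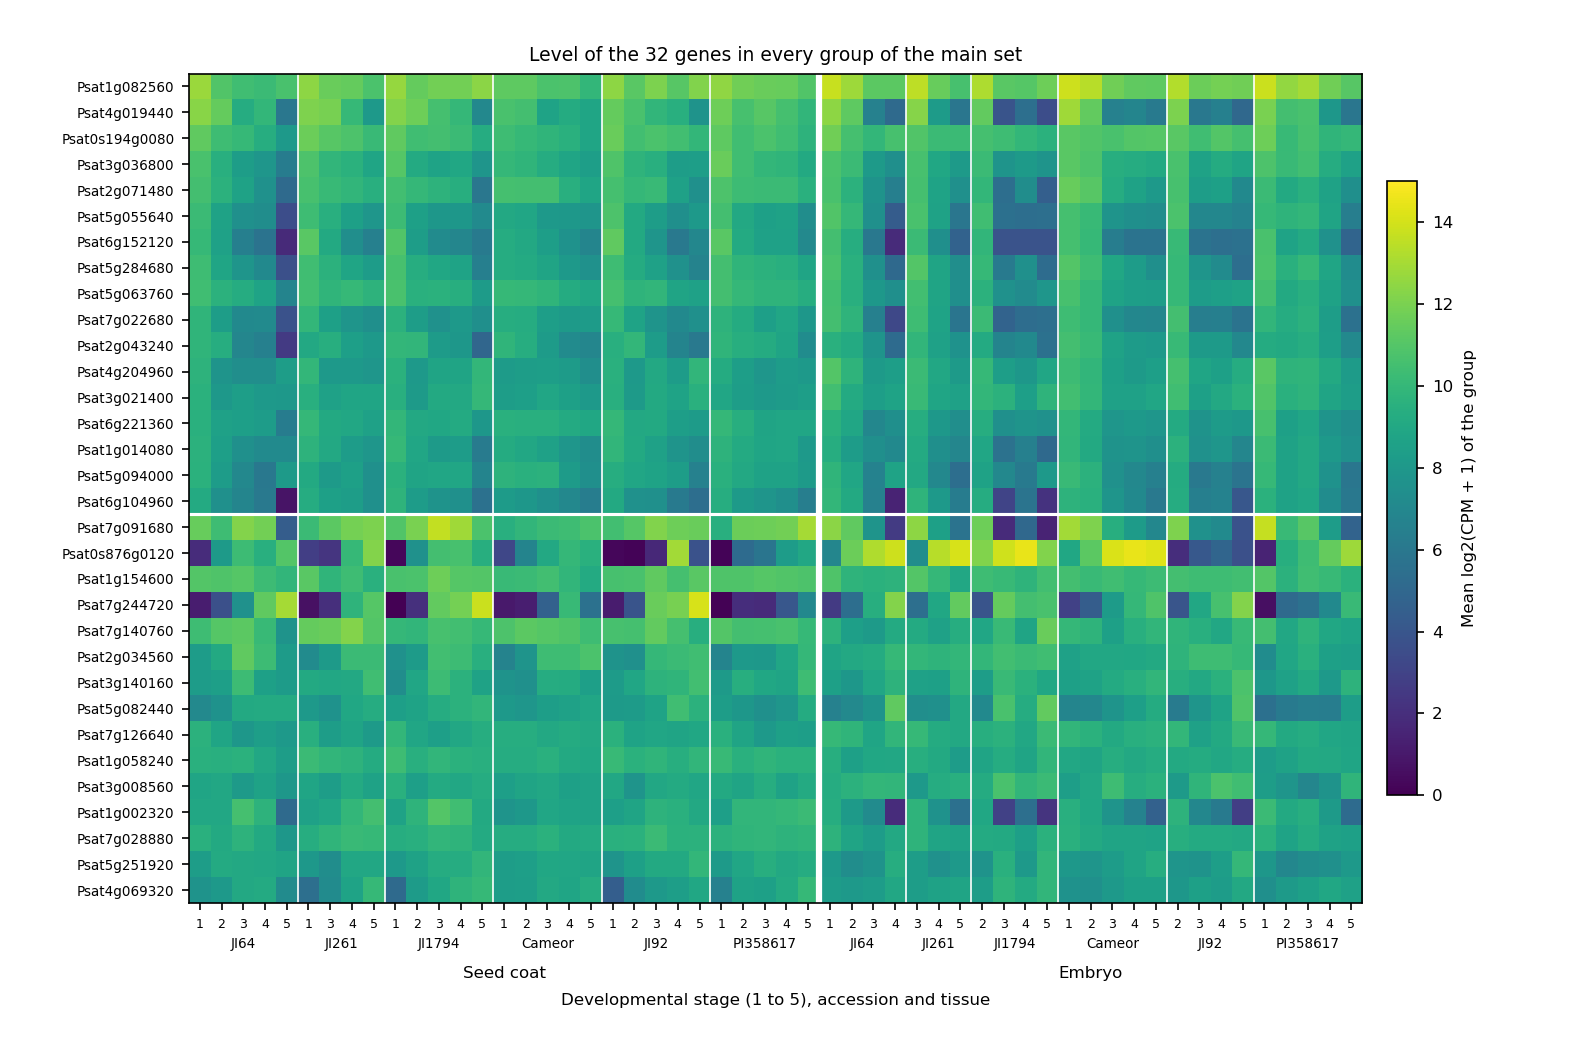
Mean log2(CPM + 1) of each of the 32 genes (rows) in each group of the main set (columns; stage numbers along the axis, grouped by accession, seed coat left and embryo right); the white horizontal line divides the 17 early genes, above, from the 15 others. Psat1g082560 stays above 9 in every group, and Psat0s876g0120 and Psat7g244720 run from near 0 to above 14.

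Abundance in both tissues at some stage did not mean a steady level. The standard deviation of the group means was largest for Psat0s876g0120 (4.48 on the log2 scale), Psat7g244720 (4.30), Psat7g091680 (3.05), Psat4g019440 (2.53) and Psat6g152120 (2.35); without the 5 libraries named above the values were 4.55, 4.24, 3.00, 2.53 and 2.22. Psat1g058240 (0.47), Psat7g028880 (0.49), Psat1g154600 (0.57), Psat7g126640 (0.58) and Psat0s194g0080 (0.72) varied least; they were singled out after their values were seen. Without the 5 libraries named above, each gene was above 9 in 24 to 101 of 101 libraries (median 47), and 15 of the 32 were above 9 in at least 50% of them. With all libraries of the main set, the spread over groups was larger in embryo than in seed coat for 21 of the 32. The median standard deviations were 0.95 in seed coat and 1.10 in embryo. This comparison was not made without the 5 libraries.

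The level of 9 was also met in the 2 accessions that did not take part in the choice. In JI261, 30 of the 32 had both tissue maxima above 9 and 27 met the whole rule. Of all 31857 Psat genes, 0.433% had both maxima above 9 there and 70 genes met the whole rule. In JI64, 26 had both maxima above 9 (0.424% of Psat genes) and 20 met the whole rule (49 Psat genes). Without its 3 libraries that stand apart, the counts were 23 (0.229%) and 17 (25 Psat genes). Both accessions were measured alongside those of the choice, and their embryos cover fewer stages.

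The course from D1 to D5 in the seed coat was followed in JI261, whose 8 seed coat libraries took no part in the choice. Of the 32 genes, 10 rose and 20 fell between D1 and D5 (edgeR quasi-likelihood test, adjusted p under 0.05), against 42.0% of all 25494 features called (5102 features higher, and 5609, or 22.0%, lower). All 17 early genes fell, with a median log2 change of -1.52. Of the 15 others, 10 rose and 3 fell, with a median of 1.48. A list of 50 abundant embryo genes from PI358617, which holds none of the 32, took 5.19 and 4.97% of counts in JI261 seed coats of D5, against about 0.17% in both libraries of D1; its part in these changes was not tested.

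Psat6g152120 showed the steepest fall. It had 2266 and 2283 CPM at D1, 561 and 557 CPM at D3, 175 and 166 CPM at D4 and 88.6 and 92.8 CPM at D5. Both libraries of D5 lay below both of D1 (log2 fold change -4.43 ± 0.11, SE, adjusted p = 3.64e-07). Psat4g019440 also fell between D1 and D5, with 4327 and 4418 CPM at D1, 4073 and 3778 at D3, 986 and 1159 at D4 and 283 and 259 at D5 (-3.79 ± 0.13, adjusted p = 6.81e-07). Psat5g055640, Psat7g022680 and Psat5g284680 fell by 2.27, 2.22 and 1.84 on the log2 scale. Psat1g082560, first by the sum of maxima in CPM, had 1706 and 1692 CPM at D5 and 5664 and 5499 CPM at D1 (-1.50 ± 0.13, adjusted p = 4.71e-05).

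Among the genes that rose, Psat7g244720 was low at first, with 0.761 and 0.442 CPM at D1 and 2.65 and 3.35 at D3, and reached 1054 and 697 CPM at D4 and 2009 and 2263 at D5. Its fitted log2 change from D1 to D5 was 11.99 ± 0.40 (adjusted p = 6.81e-07). Psat0s876g0120 rose as well and had 4654 and 4728 CPM at D5 and 4.93 and 7.08 CPM at D1 (9.83 ± 0.62, adjusted p = 1.02e-05). Psat4g069320 had 1039 and 1047 CPM at D5 and 43.9 and 44.9 CPM at D1 (4.77 ± 0.18, adjusted p = 1.15e-06). Psat2g034560 and Psat1g002320 rose by 3.23 and 2.16 on the log2 scale. Psat7g091680, second by the sum of maxima, also rose, with 4290.1 and 4181 CPM at D5 against 1221 and 1212 CPM at D1 (2.02 ± 0.12, adjusted p = 7.55e-06).

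**Figure D3:**
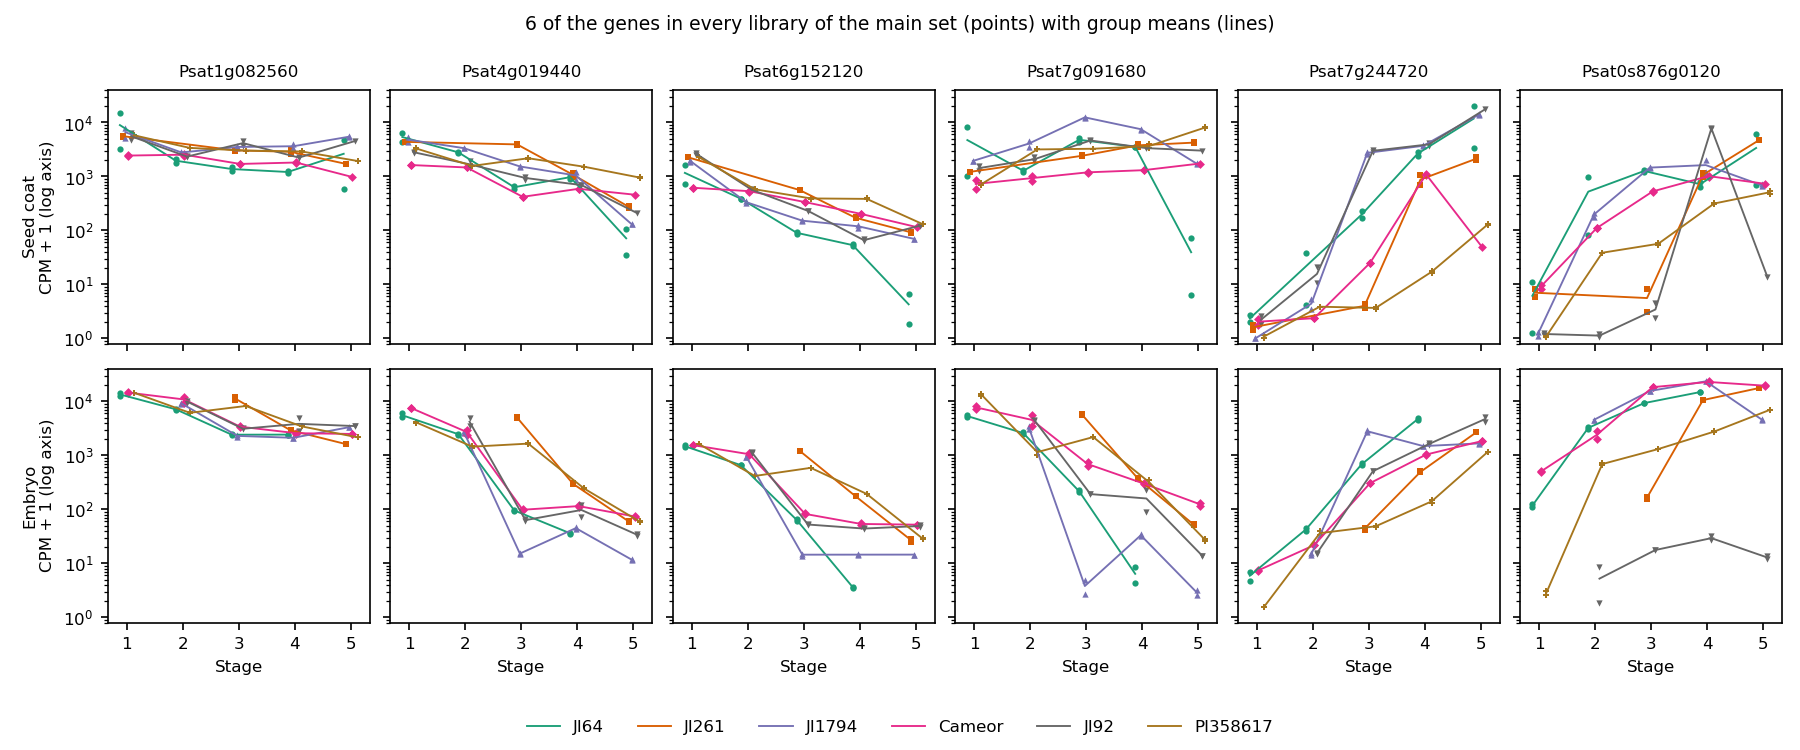
CPM + 1 on a log axis against stage for 6 of the genes, seed coat in the upper row and embryo in the lower; points are single libraries of the main set and lines join group means, coloured by accession. Psat7g091680 is high at late stages in most seed coats and low in late embryos, and Psat0s876g0120 is at most 30.4 CPM in JI92 embryos.

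A second test of the seed coat course took D4 against D1 over 4 blocks whose libraries took no part in the choice. These were JI64 and JI261 of the main set and JI64 and JI92 of 2017, with the libraries of a block and stage summed. JI64 fills 2 of the 4 blocks, and JI92 was an accession of the choice through its main set libraries, so the blocks are not 4 independent accessions. Of the 32 genes 4 rose and 5 fell, against 6.60% of 35415 features called (3.01% higher, 3.59% lower). All 5 that fell are early genes and all 4 that rose are not. The embryo list took 1.60 to 8.26% of counts at D4, against 0.165 to 0.487% at D1 (11.4% in JI64 replicate 2), and its part was not tested. Psat6g152120 fell most. In JI64 it had 53.9 and 50.8 CPM at D4 and 724 and 1603 CPM at D1. In JI261 it had 175 and 166 CPM at D4 and 2266 and 2283 CPM at D1. In JI64 of 2017 it had 59.6 and 62.8 CPM at D4 and 1942 CPM at D1. In JI92 of 2017 it had 103 and 125 CPM at D4 and 1897 and 1877 CPM at D1. It was thus lower at D4 in all 4 blocks (-4.14 ± 0.54, adjusted p = 0.0228; 1.91e-26 to 0.157 over the alternatives). Psat5g284680, Psat5g055640, Psat7g022680 and Psat1g014080 fell by 3.11, 2.45, 2.42 and 2.29 on the log2 scale (edgeR adjusted p from 0.0379 to 0.0470).

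Psat7g244720 showed the largest rise. In JI64 it had 2872 and 2422 CPM at D4 and 0.969 and 1.71 CPM at D1. In JI261 it had 1054 and 697 CPM at D4 and 0.761 and 0.442 CPM at D1. In JI64 of 2017 it had 338 and 376 CPM at D4 and 0.776 CPM at D1. In JI92 of 2017 it had 23135 and 22430.5 CPM at D4 and 8.25 and 13.5 CPM at D1. It was thus higher at D4 in all 4 blocks (10.52 ± 0.98, adjusted p = 0.0193; 2.39e-100 to 0.13 over the alternatives). Psat0s876g0120, Psat4g069320 and Psat2g034560 also rose, by 6.90, 2.83 and 2.42 on the log2 scale, although Psat0s876g0120 reached 3.39 and 3.86 CPM in JI92 of 2017. Without JI64 seed coat D1 replicate 2 the number of genes called was again 9, against 7.38% of all features. It was 0 of the 32 (and 0 of all features) without replicate 1 of every group that holds 2 libraries. The same held without the JI64 block of the main set and without the JI64 block of 2017. Without the JI92 block 2 genes were called, 2 higher and 0 lower (1.54% of all features), so no early gene was called as falling. Without the JI261 block 8 were called (6.20%). With libraries as units 6 rose and 14 fell, against 35.8% of features; with log2(FPKM + 0.1) in limma 4 rose and 11 fell, against 11.9% of features (3.57% higher, 8.36% lower).

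Embryo stages were tested in JI64 and JI261. In JI64, 10 of the 32 genes rose and 17 fell between D2 and D4, against 54.6% of 29447 features called (24.0% higher, 30.6% lower). Of the 17 early genes 15 fell and none rose, with a median log2 change of -2.81; the exceptions, Psat0s194g0080 (0.01) and Psat5g094000 (-0.25), were not past the threshold. Of the 15 others 10 rose and 2 fell. In JI261, 9 rose and 21 fell between D3 and D5, against 49.3% called (22.9% higher, 26.4% lower); 16 of the 17 early genes fell and none rose, and 9 of the others rose and 5 fell.

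The scaling matters for JI261 embryos. The fitted changes, which use TMM scaling factors, were a median of 0.82 log2 units above the plain log2 ratios of CPM. Psat2g034560 and Psat5g251920, called as higher at D5, had lower mean CPM there (968 against 993, and 265 against 323). On log2(FPKM + 1) in limma 6 of the 32 genes rose and 24 fell, and over all features 14.5% rose and 44.2% fell, so that the shift towards falls was shared by all features.

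Psat7g091680 fell most in embryos. In JI64 it had 5488 and 5215 CPM at D1, 2671 and 2493 at D2, 223 and 206 at D3 and 3.37 and 7.41 at D4 (D4 against D2, -8.93 ± 0.33, adjusted p = 3.34e-10). In JI261 it had 5591 and 5790.1 CPM at D3, 366 and 373 at D4 and 49.9 and 51.6 at D5 (D5 against D3, -5.99 ± 0.29, adjusted p = 5.34e-09). It thus fell in the embryos of both accessions and rose in the JI261 seed coat. Psat1g002320 did the same (-6.78 ± 0.14 in JI64 embryos, -3.43 in JI261 embryos and 2.16 in the JI261 seed coat). Other seed coats did not all share this rise, and neither gene was called for D4 against D1. In JI64 of 2017 the mean log2(CPM + 1) of Psat7g091680 was 10.31 at D1 and 9.78 at D4. In JI92 of 2017 it was 10.78 and 8.14. In JI64 of the main set it was 11.53 and 11.79, with a D1 library that stands apart. Psat1g002320 was lower at D4 in JI92 of 2017 (8.41 and 7.42). It was higher in JI64 of 2017 (7.88 and 9.64) and of the main set (9.02 and 9.72).

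Several early genes were low in JI64 embryos of D4. Psat6g104960 had 1.72 and 1.96 CPM at D4 and 576 and 537 CPM at D2 (-8.27 ± 0.15, adjusted p = 4.48e-14). Psat6g152120 had 2.56 and 2.67 CPM at D4 and 663 and 654 at D2 (-8.01 ± 0.10, adjusted p = 3.12e-15), and Psat7g022680 fell by 6.69 on the log2 scale. In JI261, Psat4g019440 had 59.1 and 57.5 CPM at D5 and 5131 and 4895 CPM at D3 (-5.61 ± 0.10, adjusted p = 3.85e-14). Psat6g152120, Psat5g055640 and Psat7g022680 fell there by 4.75, 4.03 and 3.73 on the log2 scale.

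Psat7g244720 and Psat0s876g0120 rose in embryos as in seed coats. Psat7g244720 had 4909 and 4466 CPM in JI64 embryos of D4 and 44.1 and 38.4 CPM at D2 (6.79 ± 0.18, adjusted p = 1.21e-12). Psat0s876g0120 had 17838 and 17508 CPM in JI261 embryos of D5 and 171 and 157 CPM at D3 (7.57 ± 0.10, adjusted p = 5.05e-15). In JI64 embryos it was already at 3358 and 3115 CPM by D2 and at 14743 and 15073 by D4. Psat5g082440 and Psat3g140160 rose in the embryos of both accessions, by 4.24 and 1.71 on the log2 scale in JI64 and by 2.49 and 2.01 in JI261. Psat5g251920 rose by 1.92 in JI64, and Psat3g008560 rose by 2.18 in JI261.

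**Figure D4:**
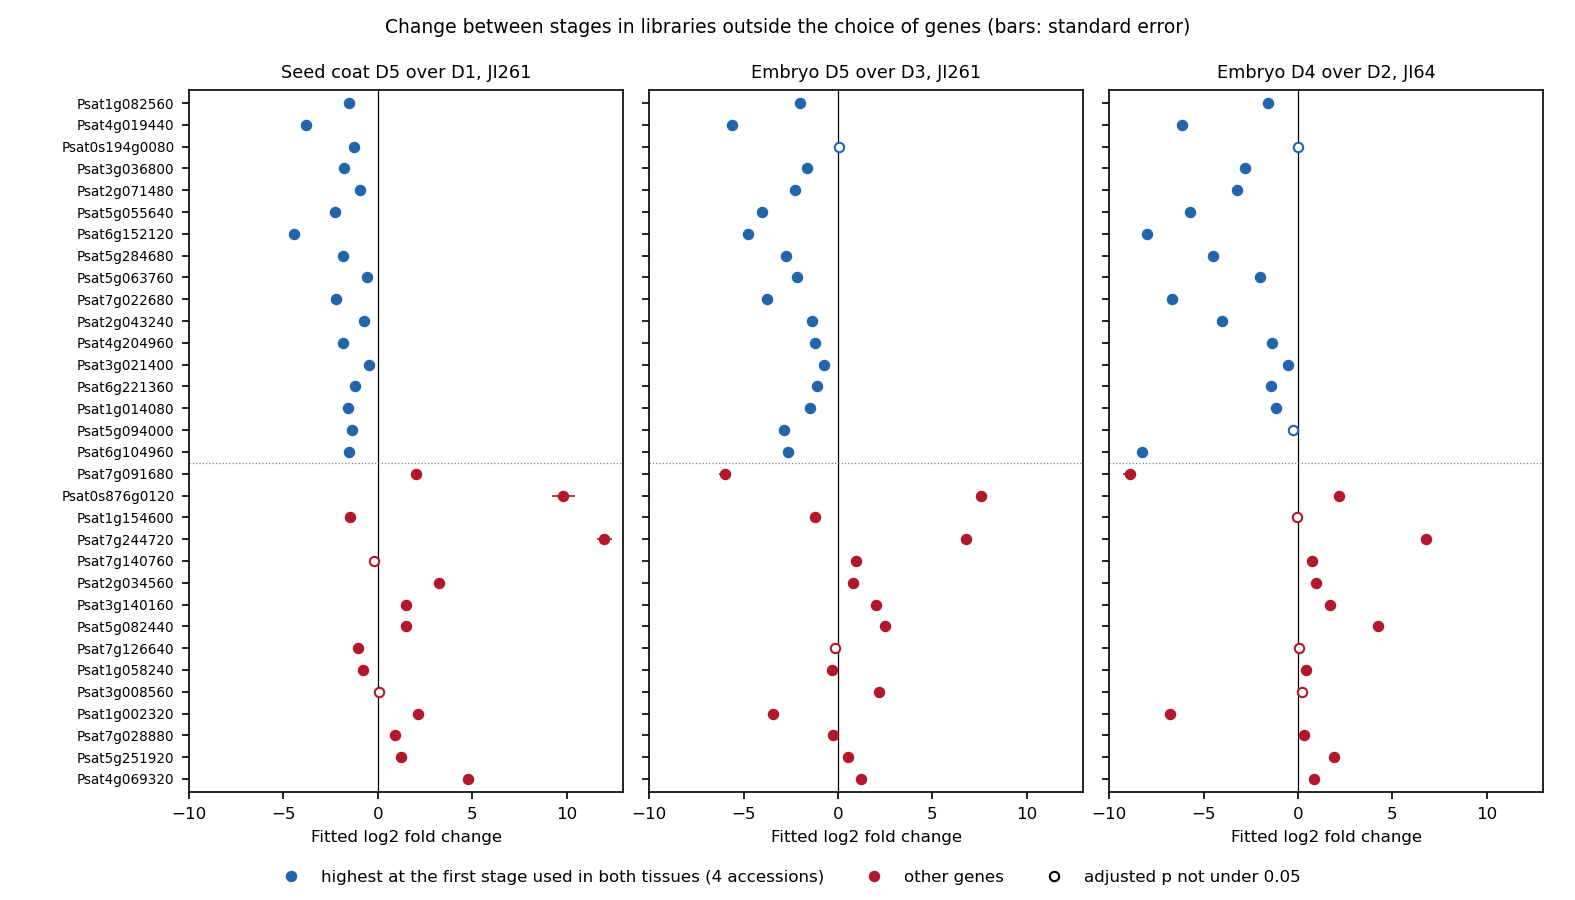
Fitted log2 fold changes (horizontal axis; bars are standard errors) of the 32 genes between stages in JI261 seed coat, JI261 embryo and JI64 embryo; blue marks the 17 early genes, red the 15 others, and open circles an adjusted p not under 0.05. All 17 blue points of the seed coat panel lie below 0, and Psat7g244720 reaches 11.99 there.

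D1 embryos, which the choice left out, were compared with D2 embryos by whether their libraries overlapped. In JI64, 17 of the 17 early genes were lower in every D2 library than in every D1 library, as were 10 of the 15 others, against 51.0% of 17759 features with a mean of 1 CPM; 5 of the others were higher at D2, against 24.4%. In PI358617, 17 early genes and 8 others were lower at D2, against 63.4% of features, and 7 others were higher, against 18.9%. In Cameor, 13 early genes and 6 others were lower at D2, against 47.3% of features, and 3 others were higher, against 7.99%. Among the 15 others, the share lower at D2 was 66.7% in JI64, 53.3% in PI358617 and 40% in Cameor. It lay above the share of all features in JI64 and below it in PI358617 and Cameor. These gaps amount to few genes and were not tested. Psat1g082560 had 7327 and 6948 CPM in JI64 at D2 and 14496 and 12480.4 CPM at D1. The D2 libraries of Cameor and PI358617 were used in the choice.

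The 2 accessions outside the choice differ in embryo levels at the same stage label. At D3, JI261 embryos had more CPM than JI64 embryos, with no overlap, for 17 of the 17 early genes and 9 of the 15 others, against 73.9% of 16592 features with a mean of 1 CPM. Psat4g019440 averaged 5013 CPM in JI261 and 94.4 CPM in JI64 embryos of D3. The JI261 values at D3 were also above those of JI64 at D2, without overlap, for 16 of the 17 early genes and 12 of the 15 others, against 58.4% of features.

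Seed coat and embryo were compared in JI64 and JI261 at D3 and D4, the stages at which both accessions have both tissues, with the libraries of a group summed. Pairs of accession and stage were the blocks. Each accession fills 2 of the 4 blocks, so they are not 4 independent accessions. Of the 32 genes 2 were called, both lower in seed coat, against 13.3% of 31568 features (8.14% higher, 5.13% lower). Psat0s876g0120 had 1212 and 1316 CPM in JI64 seed coats of D3 and 9381 and 9239 CPM in the embryos. At D4 it had 963 and 1176 CPM in JI261 seed coats and 10693 and 10474 CPM in the embryos, and it was lower in seed coat in all 4 pairs of accession and stage (-4.57 ± 0.65, adjusted p = 0.0111; 1.12e-26 to 0.0436 over the alternatives). Psat4g204960 had a median of 169 CPM in JI64 seed coats and 311 CPM in embryos, and of 264 and 845 CPM in JI261, without overlap in either accession (-1.82 ± 0.39, adjusted p = 0.0323; 6.95e-11 to 0.206 over the alternatives, and 0.206 on log2(FPKM + 1)).

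The tissue direction of the set depends on the scaling. The median log2 change was -0.35 for the 32 genes and -0.23 for all features in the fit, and 10 of 32 were higher in seed coat; on log2(FPKM + 1) the medians were 0.29 and 0.08 and 21 of 32 were higher in seed coat. With single libraries as units 3 genes were higher and 9 lower in seed coat, against 57.7% of features called. In JI64, 9 of the 32 were higher in every seed coat library than in every embryo library by CPM (48.7% of 18538 features with a mean of 1 CPM) and 5 were lower (9.45%). In JI261, 4 were higher (28.4%) and 4 lower (17.3%).

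The size of the tissue difference was itself different between JI64 and JI261 for 21 of the 32 genes, 9 higher and 12 lower in JI64 (edgeR test of the interaction, adjusted p under 0.05), against 31.8% of 32027 features (19.6% higher, 12.3% lower). On log2(FPKM + 1) in limma the split was 18 higher and 6 lower, against 67.3% of all features called (46.7% higher, 20.5% lower), so that the 24 genes called lie near the share of all features on that scale. The fitted interaction lay a median of 0.75 log2 units below that of log2(CPM + 1), and for Psat1g082560 and Psat3g036800 the 2 scales gave opposite signs. Psat7g091680 had 5167 and 4402 CPM at D3 and 3533 and 3526 at D4 in JI64 seed coats, and 223 and 206 at D3 and 3.37 and 7.41 at D4 in the embryos. In JI261 it had 2347 and 2479 and then 3543 and 4002 CPM in seed coats, and 5591 and 5790.1 and then 366 and 373 CPM in embryos. The tissue difference was thus larger in JI64 (5.10 ± 0.28, adjusted p = 4.14e-08).

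Psat7g022680 was the one gene whose tissues did not overlap in either accession and stood in opposite order, with a background of 1.57% of features. Its seed coats had 133 to 149.9 CPM and its embryos 8.40 to 95.3 CPM in JI64. In JI261 the seed coats had 184 to 411.9 CPM and the embryos 412.1 to 1356 CPM, so that these 2 ranges nearly touch. The fitted interaction was 2.90 ± 0.19 (edgeR adjusted p = 1.88e-07). Psat7g140760 was higher by CPM in every seed coat library than in every embryo library of both accessions, with medians of 1689.8 CPM in seed coat and 404 CPM in embryo of JI64, and 3747 and 476 CPM in JI261. Psat7g126640 was lower in the same sense in both, with medians of 287 CPM in seed coat and 691 CPM in embryo of JI64, and 384 and 803 CPM in JI261.

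**Figure D5:**
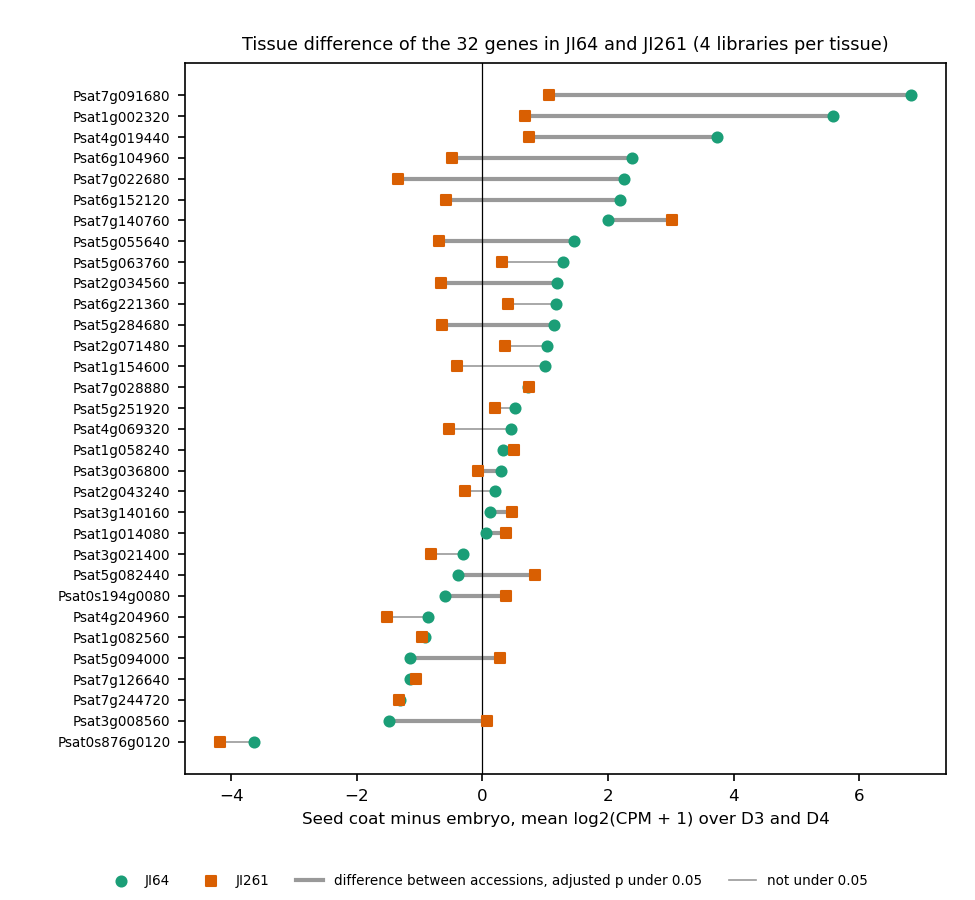
Seed coat minus embryo difference of mean log2(CPM + 1) over D3 and D4 (horizontal axis; 4 libraries per tissue) for each of the 32 genes in JI64 (circles) and JI261 (squares); thick lines mark a fitted difference between accessions with adjusted p under 0.05. The widest gap is that of Psat7g091680, at 6.83 in JI64 and 1.05 in JI261.

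The seed coats of 2017 allow JI64 and JI92 to be compared within a year. Of the 32 genes 5 were higher and 5 lower in JI64 (stage as a term, 11 libraries), against 40.8% of 34236 features (24.4% higher, 16.4% lower). At D4 the embryo list took 1.63 and 1.74% of counts in JI64 and 8.26 and 7.98% in JI92; its part was not tested. Psat0s876g0120 had 747 and 681 CPM in JI64 at D4 and 3.39 and 3.86 CPM in JI92, and was higher in JI64 at all 3 stages (6.79 ± 0.49, adjusted p = 6.13e-05; 6.69e-52 to 0.169 over the alternatives). Psat7g244720 ran the other way, with 338 and 376 CPM in JI64 at D4 and 23135 and 22430.5 CPM in JI92, and 15.6 and 16.7 CPM in JI64 and 1295 and 1513 CPM in JI92 at D2 (-5.51 ± 0.52, adjusted p = 1.65e-04; 1.65e-40 to 0.204 over the alternatives). Psat4g019440, Psat2g043240, Psat5g284680 and Psat6g104960 were higher in JI64, by 1.62, 0.99, 0.67 and 0.55 on the log2 scale. Psat3g140160, Psat5g082440 and Psat7g028880 were lower in JI64 (-1.10, -0.95 and -0.45), as was Psat3g021400 (adjusted p = 0.0491), although at 1 of 3 stages its mean was higher in JI64. Without either replicate number no feature was called, of the 32 or of all, although the single JI64 library of D1 was kept in both runs.

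Across all 6 accessions 2 genes stood more than 2 log2 units apart from every other accession in 1 tissue at D3 and D4. The search covered every accession, both directions and both tissues. Shares of all features are given for a single accession and direction, so they understate the share over the whole search. They ran from 0.0439 to 3.59% in seed coat and from 0.0282 to 1.29% in embryo, and 1 of the 32 genes was found in each tissue. Psat0s876g0120 averaged 22.5 CPM in JI92 embryos, against 2033 to 20659 CPM in embryos of the other 5 accessions; 0.0282% of 17759 features lay as far below in JI92 embryos. Its highest group mean in JI92 embryos was 28.3 CPM, at D4, and in the seed coats of that accession the 2 libraries of D4 already named are the exception, at 7927 and 7588 CPM beside 1.40 and 3.45 CPM at D3, 12.9 CPM at D5 and 3.39 and 3.86 CPM at D4 of 2017. Psat7g244720 averaged 9.39 CPM in PI358617 seed coats, against 439 to 3459 CPM in those of the others, as did 0.337% of 20490 features. In PI358617 it had 16.1 CPM at D4 and 127 CPM at D5 in the seed coat (group means) and 1155 CPM in embryos of D5. These patterns include accessions of the choice and were not tested.

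Wild peas (JI64, JI261, JI1794) and domesticated peas (Cameor, JI92) were compared at D3 and D4 with the counts of an accession summed, so that the accession is the replicate. By edgeR's quasi-likelihood test 0 of 30249 features were called in seed coat and 0 of 28091 in embryo (0.00% each), with 1120 and 1274 at an unadjusted p under 0.05, and none of the 32 genes was among these. DESeq2 called 603 features in seed coat and 915 in embryo; none of the 32 was called in seed coat and none of the 30 that it tested in embryo. The median log2 difference of the 32 genes was 0.34 in seed coat, where 26 were higher in wild peas, against -0.02 for all features; on log2(FPKM + 1) 17 were higher, with a median of 0.02. In embryo the median was 0.09, with 19 higher, against 0.15 for all features; on log2(FPKM + 1) the median was -0.06, with 15 higher. Without the JI92 seed coats of D4, again an alternative chosen after seeing the data, 0 features were called.

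Single genes had wide ranges within each class. Psat4g019440 had the smallest p of the 32 in seed coat: it averaged 1529 CPM in wild and 659 CPM in domesticated seed coats (1.48 ± 0.83, edgeR's adjusted p = 1.00 from the fit across all features, higher in 5 of 6 pairs of accessions). The accessions of the 2 classes did not overlap for Psat7g126640 in seed coat, which was lower in wild peas at 293, 379 and 429 CPM in JI64, JI261 and JI1794, against 575 and 454 CPM in Cameor and JI92 (13.3% of 20490 features were lower in this way). In embryo the same gene was higher in wild peas, at 690, 818 and 656 CPM against 632 and 462 CPM, as was Psat4g069320 (13.3% of 17759 features), and Psat0s194g0080 was lower, at 1292, 1598 and 1119 CPM against 1862 and 1722 CPM (4.97%).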

How the data were processed

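Polyadenylated RNA of seed coats and embryos was sequenced by the submitters. HISAT2 2.1.0 and StringTie 2.1.0 are named in the submitters' processing notes, and reads were mapped to the Cameor v1.0 genome, per the series' design text; for the counting tool, its settings and its use of strand, nothing was found in the labels or headers. The authors deposited 1 table of read counts per feature and 1 of FPKM (normalised by the authors for length and depth), each with 117 library columns, all matched to labels. From the deposited counts, CPM was computed on each column's total. Tests used edgeR 4.0.16 (TMM, filterByExpr, robust quasi-likelihood F test, R 4.3.3) with Benjamini-Hochberg adjustment over all features tested and a threshold of 0.05. The fits were also run on simulated counts with a single fixed dispersion and 200 features changed 4-fold, of which 98 to 100% were recovered. Those counts held no other differences between tissues, stages or accessions, so how the fits handle such differences was not tested. Tissue, seed coat D4 against D1 and class were fitted on sums over libraries, the rest on libraries. Alternatives were RLE, no filter, DESeq2 1.42.0, limma 3.58.1 (log2 of FPKM with a pseudocount of 1 or 0.1), single libraries, a replicate block and leave-outs. The 32 genes, lists and tests were chosen with earlier results of these data known. Genes named in the text are the 10 with the largest sum of maxima; the called genes with the 5 largest changes each way per comparison that moved the same way in every pair; the 5 with the largest standard deviation and the 1 above 9 in every library; and the 2 genes on each side of a threshold; others were chosen after their values were seen. None of the 32 shares a repeated identifier. Reads shared with near-identical copies cannot be told apart in these tables.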

Additional observations from a re-analysis of the deposited data

Results flagged for a closer look

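The seed coat minus embryo difference at D3 and D4 was not the same in JI64 and JI261 for 21 of the 32 genes, by edgeR's test of the difference between the differences, against 31.8% of 32027 features. The direction depends on the scale: 9 were higher and 12 lower in this fit, and 18 higher and 6 lower with limma on log2(FPKM + 1), where 67.3% of features were called. On log2(CPM + 1), 2 of the 21, Psat1g082560 and Psat3g036800, had the opposite sign. The fitted log2 values for those named were 5.10 for Psat7g091680, 4.38 for Psat1g002320, 2.90 for Psat7g022680, 2.42 for Psat6g104960 and 2.26 for Psat4g019440, where the seed coat stood higher relative to the embryo in JI64. They were -1.73 for Psat0s194g0080, -1.80 for Psat7g140760, -1.98 for Psat5g082440, -2.20 for Psat5g094000 and -2.32 for Psat3g008560, where it stood lower. Beside these values, JI261 embryos of D3 had higher levels than JI64 embryos of D3 for all 17 early genes and 9 of the 15 others, against 73.9% of 16592 features, and the summed share of an embryo gene list from PI358617 was 20.9 to 23.2% in JI261 embryos of D3 and 54.4 to 55.2% in those of JI64; its part in the result was not tested.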

How the results depend on the processing

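The number of the 32 genes called moved by more than 1.5 times in the following cases, with the share of all features called in parentheses. For the tissue test (2 called) it was 9 with DESeq2 (36.8%), 1 with limma on log2(FPKM + 1) (9.67%), 12 with single libraries (57.7%), 15 with single libraries at D3 alone (45.6%) and 9 at D4 alone (41.5%); these counts are near or below those shares of the 32 genes. For seed coat D4 against D1 (9 called) it was 20 with DESeq2 (30.5%), 15 with limma on log2(FPKM + 0.1) (11.9%) and 20 with single libraries (35.8%); it was 0 without the JI64 block of the main set, 0 without that of 2017 and 2 without the JI92 block (1.54%). For wild against domesticated peas (0 called) single libraries gave 2 in seed coat (19.4%) and 1 in embryo (12.6%). The cause was not tested; single libraries count 2 libraries of a group as separate units. Without replicate 1 or 2 the counts were 2 and 2 for tissue, 0 to 10 for seed coat D4 against D1, 0 and 0 for JI64 against JI92 in 2017 and 0 for both class tests. Groups with a single library kept it in these runs. Without replicate 1 the JI64 block of the main set at D1 holds replicate 2 alone. Where dropping a replicate number left no residual degrees of freedom, each library was left out in turn, a choice made after seeing the data, and the counts were 20 to 24 for tissue by accession, 29 to 30 for JI261 seed coats, 26 to 27 for JI64 embryos and 29 to 30 for JI261 embryos. Of 60 results on single named genes, 41 stayed past the threshold under every alternative run. Of 760 values 61 had the same direction without passing it, and 0 turned round. These 60 were chosen as large changes that moved the same way in every pair, which favours a stable direction. Outside them, the fit and CPM gave opposite signs for Psat2g034560 and Psat5g251920 in JI261 embryos. The same held for Psat1g082560 and Psat3g036800 in the test of tissue by accession.

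Replicate numbers did not pair the samples: over 23 pairs of seed coat and embryo groups the correlation of deviations ran from -0.059 to 0.063. With the replicate block the counts were 22 for tissue by accession, 30 for JI261 seed coats, 27 for JI64 embryos, 30 for JI261 embryos and 8 for JI64 against JI92 (33.0% of features), where 5 were higher and 3 lower and Psat7g028880 had an edgeR adjusted p = 0.0567. With single libraries and the replicate block they were 12 for tissue, 20 for seed coat D4 against D1, and 2 and 1 for wild against domesticated seed coats and embryos. Every pair of libraries differed by more than counting noise (lowest ratio 5.42).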
